A study of Mus musculus with 12 samples.

Results

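Heart was compared with liver, lung and thymus on 12 Affymetrix Mouse Genome expression arrays, of which 3 were heart arrays and 9 came from the other 3 tissues. The heart arrays were those titled for heart in the sample labels. Each tissue was taken from Sv/129 mice at 2 months of age that were wild type (WT), lacked the stress-linked p66 form of Shc (p66KO) or lacked the tumour suppressor p53 (p53KO). RNA from 4 mice was pooled for each tissue and genotype and 1 array was run on each pool. The 3 genotypes therefore served as the repeats of a tissue, and the spread within a tissue holds genotype effects and array noise together. The labels do not say which parts of the heart were taken, and the knock-out alleles were carried by all cells of the animal and not by heart muscle alone.

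A gene was called heart-higher when its heart mean exceeded each of the other 3 tissue means and the weakest of the 3 comparisons passed a Benjamini-Hochberg adjusted p of 0.05 in limma. The gap of a gene is its mean log2 signal in heart minus the highest mean among liver, lung and thymus, so that a gap of 2 is 4-fold. Heart-higher genes with a gap of 2 or more were called heart-restricted. By this rule 178 of 18193 genes were heart-restricted. The term refers to these 4 tissues only, since skeletal muscle and other organs were not measured. In tissue RNA of this kind, more cells of a type and more RNA per cell cannot be told apart.

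Heart muscle cells shorten when thick filaments of myosin pull on thin filaments of actin inside sarcomeres that are anchored at Z discs. Each beat is set off by calcium that enters through surface channels, opens the ryanodine receptor of the sarcoplasmic reticulum and is then pumped back. The energy comes mostly from fatty acids burned in densely packed mitochondria, and atria and ventricles build their sarcomeres from different myosin light chains.

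The 3 heart arrays had correlations of 0.976 to 0.986 with each other over all probe sets, and of 0.822 to 0.912 with the other arrays. Probe sets are no replicates, and these values are a description. Median log2 signal was between 6.22 and 6.41 on the 12 arrays. For Gapdh, control signal at the 3′ end minus that at the 5′ end was 0.25 to 0.41 in heart and 0.24 to 0.59 in thymus. It was 0.82 to 0.95 in liver, and 2.29, 1.32 and 0.66 in WT, p66KO and p53KO lung. For Actb it was 0.36 to 0.82 in heart, 0.64 to 0.95 in thymus, 1.39 to 1.68 in liver and 0.96 to 1.80 in lung. Whether these differences between tissues affect the gaps was not tested. The 18S ribosomal control probe set read 9.04 to 9.61 on the heart arrays and 9.79 to 10.86 on the p53KO lung, WT thymus and p53KO thymus arrays, against 5.52 to 6.61 on the remaining 6. Of the heart-restricted genes, 155 had a heart mean at least 2 above the highest of those 3 high-reading arrays. For 160 the heart mean was at least 2 above the highest of the 6 low-reading ones. The genes were chosen for a gap of 2 or more on these same arrays, so high counts were built in. These counts do not test whether the 18S difference matters. Transcripts of salivary gland stood out on the WT thymus array (mean of 15 genes 13.17) and, to a lesser degree, on the WT heart array (8.31, against 6.08 and 5.87 on the p66KO and p53KO heart arrays). Shc1 read 8.93, 9.37 and 8.91 in WT, p66KO and p53KO heart, but its probe set is not known here to be specific for the p66 form, so this does not check the label.

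Heart-higher calls were made for 608 genes (3.34% of those tested) and heart-lower calls, defined in the same way, for 238 (1.31%). The heart-lower count rested on single arrays, and was 537 without the WT thymus array, 73 without the p66KO heart array and 61 without the p53KO heart array. The 178 heart-restricted genes were 0.978% of the genes tested. Their gaps ran from 2.01 to 6.97 with a median of 3.13, and 50 of them reached 4 and 15 reached 5. The lowest of the 3 heart arrays lay above all 9 other arrays for 1534 genes (8.43%), among them each of the 178. Just inside the threshold were Acyp2 (2.01), Dlat (2.01), Homer1 (2.02) and Kcng2 (2.02), and just outside were Pla2g5 (2.00), Pcp4l1 (2.00), Rilpl1 (1.99) and Ndufa5 (1.97). Besides the 178, 3 further genes had a gap of 2 or more without passing the test, and these were the atrial genes Myl7, Myl4 and Sln.

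The 4 genes taken as heart markers were all heart-restricted. Myh6, the alpha myosin heavy chain that drives contraction of the adult mouse heart, read 14.57, 14.46 and 14.46 in WT, p66KO and p53KO heart. In the same order it read 11.44, 10.64 and 10.06 in lung, 9.43, 9.21 and 5.76 in thymus and 5.66, 5.94 and 5.83 in liver. Heart thus lay above every other array, lung was above liver, and the p53KO thymus array was at the level of liver. The gap of Myh6 over lung was 3.78 (SE 0.73, 13.8-fold, limma adjusted p = 0.0092). Without the p53KO lung array the gap was 3.46 and the adjusted p 0.0501. The size of the Myh6 gap also depended on the probe set. The readings above are those of the brightest one. With the probe sets of Myh6 averaged the gap was 5.49 (limma adjusted p = 3.14e-06).

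Actc1, cardiac alpha actin, had nearly the same layout, with 14.43, 14.34 and 14.38 in heart, against 10.61 to 11.60 in lung and 7.35 to 7.43 in liver, while thymus read 10.04, 9.88 and 6.71. Its gap was 3.37 (SE 0.66, 10.3-fold, adjusted p = 0.00989). Tnni3, the cardiac inhibitory troponin, read 14.16, 13.74 and 14.01 in heart and no more than 9.37 on any other array, for a gap of 5.04 (SE 0.66, 32.8-fold, adjusted p = 4.21e-04). Nppa, the atrial natriuretic peptide that lowers blood volume, read 14.41, 13.80 and 14.17 in heart. On the other arrays Nppa reached 11.75 in p66KO thymus, 9.21 in WT thymus and 8.06 in p53KO lung, and liver stayed at 5.82 to 5.99. The heart and thymus arrays did not overlap for Nppa, and its gap was 5.07 (SE 0.98, 33.6-fold, adjusted p = 0.00891). Leaving out WT and p53KO thymus and p53KO lung, a choice made after seeing the data, lowered the gap of Nppa to 2.37 (adjusted p = 1.25e-04).

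**Figure D1:**
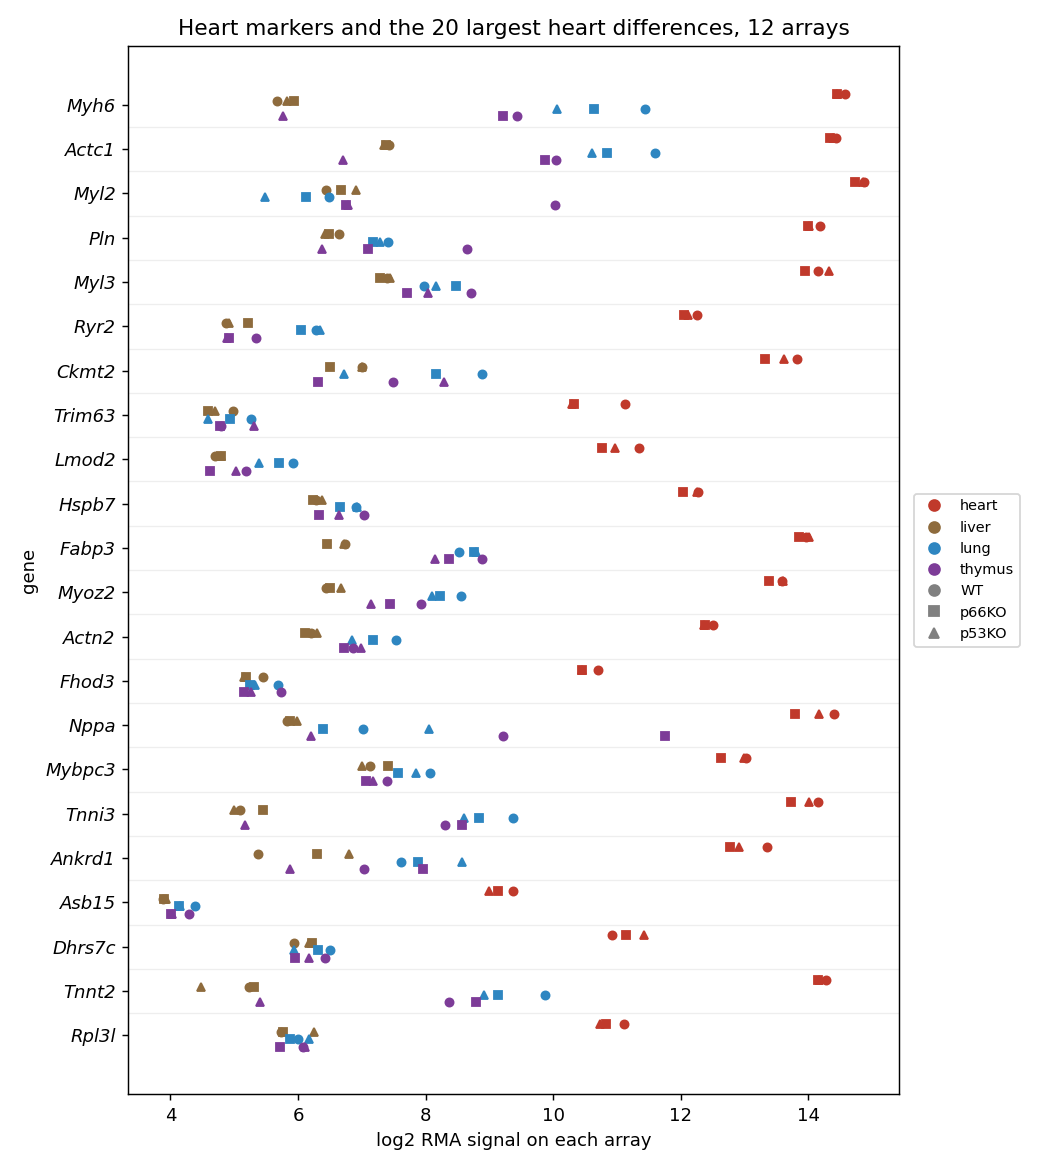
Log2 signal on each of the 12 arrays for the heart markers and the heart-restricted genes with the largest gaps, with tissue shown by colour and genotype by marker shape. The heart arrays lie above all other arrays for every gene drawn, and Myl2 has the widest gap (6.97).

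The largest gap of all genes belonged to Myl2, the regulatory light chain of ventricular myosin. Myl2 read 14.87, 14.73 and 14.87 in WT, p66KO and p53KO heart, 6.43 to 6.92 in liver, 6.48, 6.13 and 5.48 in lung, and 10.04, 6.75 and 6.78 in thymus. Only the WT thymus array stood above the others outside heart. The gap over thymus was 6.97 (SE 0.67, 125-fold, adjusted p = 2.48e-05). Myl2 did not follow Myh6 in lung, where lung minus liver was -0.64 (adjusted p = 0.532) against 4.90 for Myh6 (adjusted p = 1.79e-04).

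Of 13 measured genes of the thick filament and M band, 10 were heart-restricted, and their median gap over the list was 3.91 against -0.24 over all genes. They included Myl3, the essential light chain of ventricular myosin (gap 5.94), Mybpc3, the cardiac myosin-binding protein C (5.05), and Mylk3, the kinase that phosphorylates Myl2 (4.51). Ttn, the giant spring of the sarcomere, read 13.49, 13.00 and 13.00 in heart and 9.64, 9.13 and 7.48 in the lung arrays, with a gap of 4.42 (SE 0.50). Myh7, the slow beta heavy chain that mouse ventricle uses before birth, read 9.26, 9.09 and 8.39 in heart and 9.17, 8.73 and 8.57 in lung. These ranges overlapped and the gap of Myh7 was 0.09 (SE 0.25, adjusted p = 1), although heart was 3.15 above thymus.

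In the thin filament 9 of 12 genes were heart-restricted, with a median gap of 3.42. Lmod2, which lengthens actin filaments, led with 5.36, followed by Tnni3 and by the cardiac troponins Tnnt2 (4.90) and Tnnc1 (4.80). Not called were Tnni1, the slow skeletal troponin of the fetal heart (gap 0.17), Nebl, which read 11.36, 11.37 and 11.18 in heart and 11.49 ± 0.19 in lung (SD, n = 3), and Acta1. Acta1, skeletal alpha actin, read 13.54 in WT heart but 11.34 and 11.71 in p66KO and p53KO heart, and 11.71 in p53KO thymus, so that its gap of 1.98 carried an SE of 1.10 (adjusted p = 0.898).

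Among 18 genes of the Z disc and the cytoskeleton attached to it, 15 were heart-higher and 13 heart-restricted, and the median gap was 4.09. Hspb7, a small heat shock protein of muscle, had a gap of 5.36, Myoz2, a calsarcin that binds calcineurin, had 5.23, and Actn2, the sarcomeric alpha actinin, had 5.23. Ankrd1, a stretch-responsive ankyrin repeat protein, had 4.99. The 3 heart arrays differed by 0.58 at most for these 4 genes. Synpo2l (gap 0.54, adjusted p = 0.401) and Pdlim5 (-0.08) had the smallest gaps on this list.

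Calcium handling was carried by 12 heart-higher genes out of 17, of which 9 were heart-restricted, with a median gap of 2.29. Pln, phospholamban, which restrains the calcium pump, read 14.18, 13.99 and 14.02 in heart and at most 8.64 elsewhere, on the WT thymus array. Its gap of 6.69 (SE 0.41, 103-fold, adjusted p = 4.28e-07) was the next largest after Myl2. Ryr2, the ryanodine receptor, read 12.26, 12.05 and 12.12 in heart and 4.87 to 6.34 on all other arrays. It had a gap of 5.92 with an SE of 0.17 and the lowest adjusted p of all genes (2.33e-09). The calcium store protein Casq2 had a gap of 4.58 and the pump Atp2a2 one of 3.49. Slc8a1, the sodium-calcium exchanger, was at 7.58, 7.65 and 7.32 in heart with a gap of 0.08 by its brightest probe set, and Fkbp1b, which binds the ryanodine receptor, had -0.33.

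Of 20 ion channel and gap junction genes, 10 were heart-higher and 5 heart-restricted, and the median gap was 0.86. The heart-restricted ones were Popdc2 (3.17) and Bves (2.19), both cyclic AMP binding membrane proteins, Kcnip2 (2.99), a subunit of the transient outward potassium channel, Abcc9 (2.29), the sulfonylurea subunit of the ATP-sensitive channel, and Kcna5 (2.16), the ultrarapid delayed rectifier. The count was 6 without the p66KO thymus array. Kcnj2 (0.17) was not called, but its probe set read only 4.86 to 4.94 in heart and 4.35 to 4.82 elsewhere. Scn4b was higher in thymus than in heart (gap -2.73).

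Of 24 cardiac transcription factors and co-factors, 7 were heart-higher, and the median gap was 0.45. The heart-restricted ones were Ankrd1, Tbx20 and Nkx2-5. Tbx20, a T-box factor of heart formation, read 10.25, 9.59 and 9.38 in heart and at most 5.83 elsewhere, for a gap of 4.44. Nkx2-5, the homeobox factor of the cardiac lineage, read 9.94, 9.22 and 9.35 in heart and at most 7.13 elsewhere, for a gap of 2.67 (adjusted p = 6.30e-06). Hand2 had a gap of 1.93. Tbx3 (-1.99) and Irx3 (-2.56) had their highest level in lung.

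Both natriuretic peptides and the protease that cuts their precursors were heart-restricted. Nppb, the B-type peptide, read 11.62, 11.45 and 11.23 in heart and 5.76 to 7.29 elsewhere (gap 4.65), and Corin, the cardiac protease, had a gap of 4.03. The receptor Npr1 was highest in lung (gap -1.68) and Furin in liver (-2.16), so 3 of the 8 genes on this list were called and its median gap was -0.52.

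Genes known for the atria were then read beside those known for the ventricles. Myl7, the atrial regulatory light chain, read 13.45, 13.03 and 13.19 in heart and 10.63 to 11.46 in lung. Its thymus arrays read 8.62, 10.70 and 6.40, while liver read 5.12 to 5.81. Myl4, the atrial essential light chain, read 13.28, 12.75 and 13.16 in heart, against 10.35 to 10.57 in lung and 8.82, 10.21 and 6.09 in thymus. Sln, sarcolipin, the atrial inhibitor of the calcium pump, read 12.85, 12.33 and 12.80 in heart, against 10.07 to 10.56 in lung and 8.57, 9.64 and 5.49 in thymus. In all 3 genes heart was above every other array, lung came next, and the thymus arrays were spread over more than 4 log2 units with p66KO at the top and p53KO at the bottom.

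The gaps were 2.20 for Myl7, 2.61 for Myl4 and 2.29 for Sln, with SEs of 0.75, 0.72 and 0.75 and adjusted p values of 0.249, 0.093 and 0.206. The fit uses 1 spread per gene for the 4 tissues, and for these genes thymus supplied most of it, with SDs of 2.15, 2.10 and 2.16 against 0.21 to 0.29 in heart. Without the thymus group the adjusted p values were 5.18e-05, 2.63e-06 and 2.75e-05. Without the p53KO thymus array alone they were 0.0122, 3.16e-04 and 5.32e-04, and without the p66KO thymus array alone 0.0159, 0.0119 and 0.0604. With all arrays kept, Myl4 passed after repeated quantile normalization (adjusted p = 0.0368) and with probe sets averaged (0.0162). Myl7 and Sln passed in neither setting. With probe sets averaged the gaps were 2.20 for Myl7, 1.70 for Myl4 and 1.45 for Sln. In lung these genes were above liver by 5.55 for Myl7, 4.33 for Myl4 and 4.21 for Sln (adjusted p = 7.65e-05, 4.41e-04 and 7.27e-04).

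Of the 10 atrial markers, 4 were heart-higher, including Mybphl (gap 2.38), a myosin-binding protein of atrial muscle, and Bmp10 (1.41), a growth factor of the right atrium. The count was 8 without the thymus group and 7 without the p53KO thymus array alone. Of the 6 ventricular markers, Myl2, Myl3, Fhl2 (4.71) and Irx4 (1.80) were heart-higher. Hey2 had a gap of 0.16, but its probe set read only 4.90 to 5.05 in heart and 4.38 to 5.08 elsewhere. Myh7 had a gap of 0.09, and its lung mean was 2.99 above its liver mean.

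**Figure D2:**
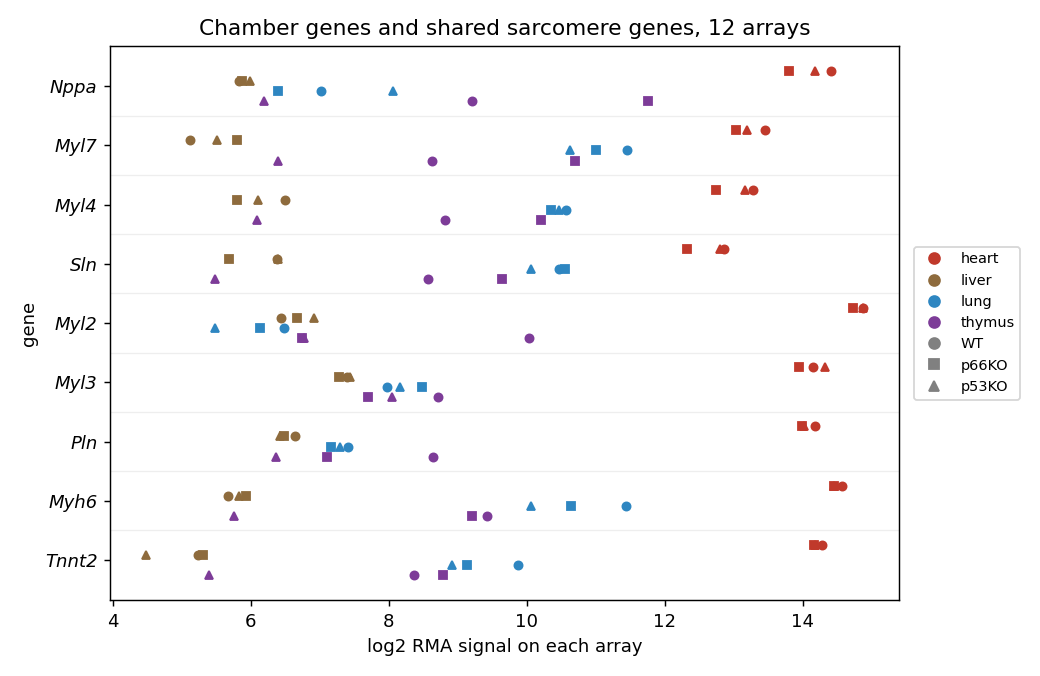
Log2 signal on each of the 12 arrays for atrial and ventricular genes and for Pln, Myh6 and Tnnt2, with tissue by colour and genotype by marker shape. The atrial genes Myl7, Myl4 and Sln read 10.07 to 11.46 in lung and are scattered from 5.49 to 10.70 in thymus. This layout is not limited to atrial genes. Myh6 reads 10.06 to 11.44 in lung and 5.76 to 9.43 in thymus, and Tnnt2 reads 8.91 to 9.88 and 5.40 to 8.79. Myl2 is at 5.48 to 6.48 in lung.

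The heart-restricted genes as a whole were also read in lung and liver. Of the 178, 74 were higher in lung than in liver (41.6%, against 18.1% of all genes tested) and 6 were lower (3.4%, against 13.0%), and the median of lung minus liver was 0.47 against -0.04 over all genes. The widest differences were those of Myh6 (4.90), Tnnt2 (4.30), Tnni3 (3.75), Actc1 (3.63) and Slc25a4 (3.56). Lung was the next highest tissue for 96 heart-restricted genes (53.9%, against 25.8% for which lung was the highest tissue outside heart over all genes), thymus for 60 (33.7%, against 39.8%) and liver for 22 (12.4%, against 34.3%). Since lung values also enter the gap that chose the genes, these shares are a description.

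Energy metabolism was covered by 4 lists. In the respiratory chain 39 of 43 measured subunits were heart-higher, the highest share of the lists read here, and the median gap was 1.14 and 3 were heart-restricted. These 3 were forms of cytochrome oxidase made in heart and skeletal muscle. Cox6a2 read 13.28, 13.25 and 13.47 in heart and 7.52 to 9.21 elsewhere, with a gap of 4.18. Cox7a1 had a gap of 3.78 and Cox8b one of 2.60, with thymus next highest for both. Uqcrb of complex III (0.46) and Atp5d of the ATP synthase (0.35) were not called. The count for this list was 31 after centring the arrays on their medians and 33 without the WT heart array.

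In the tricarboxylic acid cycle 15 of 18 genes were heart-higher, with a median gap of 1.26. Idh2, the mitochondrial NADP-dependent isocitrate dehydrogenase, led with 2.72, followed by citrate synthase Cs (2.03), Dlat of the pyruvate dehydrogenase complex (2.01) and Ogdh (1.87). Suclg2, the GTP-forming subunit of succinyl-CoA ligase, was not called. This count fell to 10 after median centring and to 10 without the WT heart array.

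Fatty acid uptake and oxidation had 14 heart-higher genes of 30, with a median gap of 0.79. Fabp3, the fatty acid carrier of heart cytosol, read 13.97, 13.85 and 14.01 in heart and 6.46 to 8.88 elsewhere, for a gap of 5.25 (SE 0.18). Lpl, which frees fatty acids from lipoproteins, had a gap of 2.04 over lung, and Hadhb of the trifunctional protein had 2.07. For the 16 genes of this list that were not called, liver was often level with heart or above it, as for Eci2 (gap -0.69) and Ppara (-3.06), a nuclear receptor for fatty acids.

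Phosphagen, oxygen and sugar supply had 16 of 21 genes heart-higher and 11 heart-restricted, with a median gap of 2.22. Ckmt2, the sarcomeric mitochondrial creatine kinase, read 13.82, 13.33 and 13.62 in heart and 6.31 to 8.88 elsewhere, for a gap of 5.67 (50.8-fold). The muscle enzymes of glycolysis Pgam2 (4.27) and Eno3 (4.17) and the oxygen store myoglobin, Mb (4.11), followed. Mb read 14.82, 14.65 and 14.67 in heart.

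**Figure D3:**
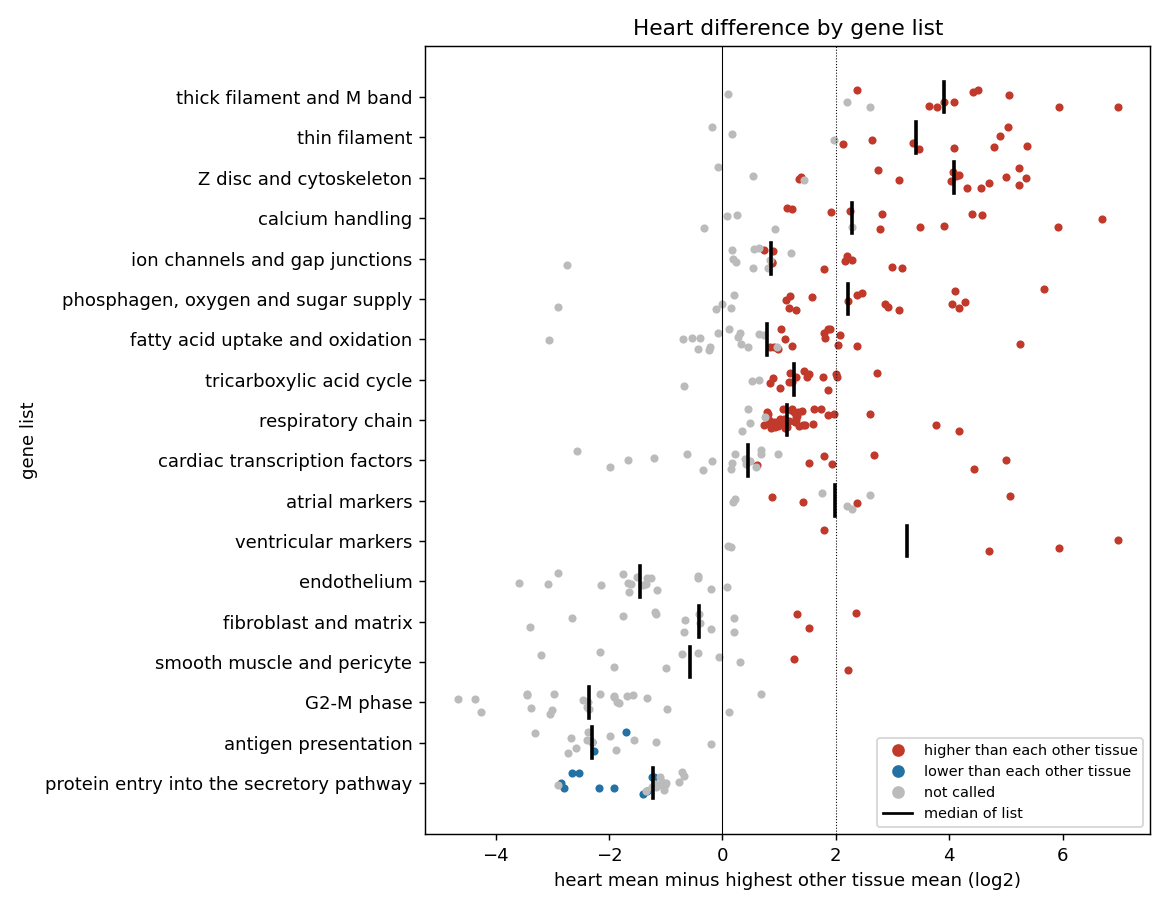
Gap of each measured gene, that is mean log2 in heart minus the highest mean among liver, lung and thymus, by list, with each list's median marked. Sarcomere, Z disc and calcium lists have medians of 2.29 to 4.09, respiratory chain and tricarboxylic acid cycle genes sit close together at 1.14 and 1.26, and the endothelium, fibroblast and smooth muscle lists have medians below 0.

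Many of these genes are muscle forms of an enzyme that has a common form elsewhere, and the pairs were set side by side by their gaps. Muscle creatine kinase Ckm had a gap of 3.65 and brain creatine kinase Ckb one of -0.58, while the mitochondrial forms Ckmt2 and Ckmt1 had 5.67 and -0.89. The adenine nucleotide carrier Slc25a4 had 2.92 and its partner Slc25a5 had -0.74. The glycogen phosphorylases Pygm and Pygl had 4.05 and -4.80, the glucose carriers Slc2a4 and Slc2a1 had 2.47 and -0.94, and the lactate dehydrogenases Ldhb and Ldha had 1.58 and -0.22. All the muscle or heart forms named here were heart-higher, and their partners were not.

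Among the cytochrome oxidase pairs, Cox6a1 was heart-lower, with 12.04, 11.59 and 11.81 in heart against 12.82 to 13.37 on the other arrays (-1.07 relative to lung, the lowest other tissue, adjusted p = 0.00422). The sum of Cox6a1 and Cox6a2 cannot be read from probe sets of different brightness. Cox8a was not called (gap -0.65). Cox7a2, the liver-type partner of Cox7a1, was slightly higher in heart (gap 0.65, adjusted p = 0.0271), and that call was lost in 10 of the alternatives tried. Cytoplasmic beta actin Actb was called heart-lower at -1.20 relative to the lowest other tissue, with an adjusted p of 0.0489 that did not hold in 15 alternatives.

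For the sarcomere genes Actc1, Myl7 and Myl3 the 150 bases before the transcription start hold a CArG box, the element bound by serum response factor, and these windows are shown because they hold it. Windows of the same length before Myh6, Tnni3, Myl2, Myl4, Tnnt2, Ckm, Nppa, Pln and Ryr2 held no CArG box. Sequences are RefSeq GRCm38.p6, from a C57BL/6J genome and not from Sv/129, written 5′ to 3′ along the gene's strand. Capitals mark the CArG box and, where present, CATTCC, the core bound by TEAD factors. Actc1 lies at chr2:114052876-114053025 on the minus strand, with its CArG box 47 to 38 bases before the start. Myl7 lies at chr11:5898783-5898932 on the minus strand, with its CArG box 61 to 52 bases before the start and CATTCC directly upstream. Myl3 lies at chr9:110763528-110763677 on the plus strand, with its CArG box 85 to 76 bases before the start.
Actc1: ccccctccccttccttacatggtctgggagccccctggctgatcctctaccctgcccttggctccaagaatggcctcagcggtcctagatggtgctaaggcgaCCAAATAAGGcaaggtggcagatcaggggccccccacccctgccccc
Myl7: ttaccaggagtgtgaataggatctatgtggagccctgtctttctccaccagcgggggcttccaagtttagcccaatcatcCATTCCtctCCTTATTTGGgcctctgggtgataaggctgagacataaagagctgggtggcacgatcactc
Myl3: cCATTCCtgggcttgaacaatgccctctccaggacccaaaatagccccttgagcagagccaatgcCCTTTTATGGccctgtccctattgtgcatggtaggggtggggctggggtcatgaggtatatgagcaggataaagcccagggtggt

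Over the 250 bases before the start, searched on both strands, a CArG box was present in 9 of 187 promoter windows of the 142 heart-restricted genes that could be matched (4.8%), against 1.2% of the windows of all tested genes. The GATA form AGATAA was present in 15.5% against 7.4%, CATTCC in 18.2% against 11.5%, the MEF2 form CTANNNNTAG in 4.8% against 3.0% and AAGGTCA, a form bound by estrogen-related receptors, in 5.9% against 3.5%. TNAAGTG, a form bound by NKX2-5, was present in 7.5% against 8.4%, and TATAAA in 12.3% against 8.8%. These shares count letters in a short window and have no test, and a gene with several starts contributes several windows.

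Heart identity was then read genotype by genotype. Within 1 genotype the gap was taken between the heart array and the highest of the other 3 arrays. Of the 178 heart-restricted genes, 168 had a gap of 2 or more in WT, 153 in p66KO and 161 in p53KO, and 139 had it in all 3, while each of the 178 had a gap above 0 in all 3. Over all genes the counts were 203 (1.12%), 159 (0.87%) and 176 (0.97%).

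Because the 178 were chosen on all 12 arrays, genes were also chosen on WT arrays alone and read in the knock-outs, which the choice did not use. Of 203 genes with a gap of 2 or more in WT, 149 (73.4%) had such a gap in p66KO and 155 (76.4%) in p53KO, 140 had it in both and 39 in neither. Their median gap was 2.96 in WT, 2.63 in p66KO and 2.85 in p53KO, whereas the median over all genes was -0.32 in p66KO and -0.28 in p53KO. Since the genes were chosen on single WT arrays, their WT median is raised by the choice. The lower knock-out medians and the 39 genes are therefore no measure of a loss of heart identity. A gap above 0 was found for 202 of the 203 in each knock-out. The exception in both was Fgf13, an intracellular regulator of sodium channels, with gaps of 3.27, -0.14 and -0.09 in WT, p66KO and p53KO. Fgf13 read 10.39, 9.59 and 9.79 in heart and 7.12, 9.73 and 9.87 in thymus, so that the thymus arrays differed more than the heart arrays.

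**Figure D4:**
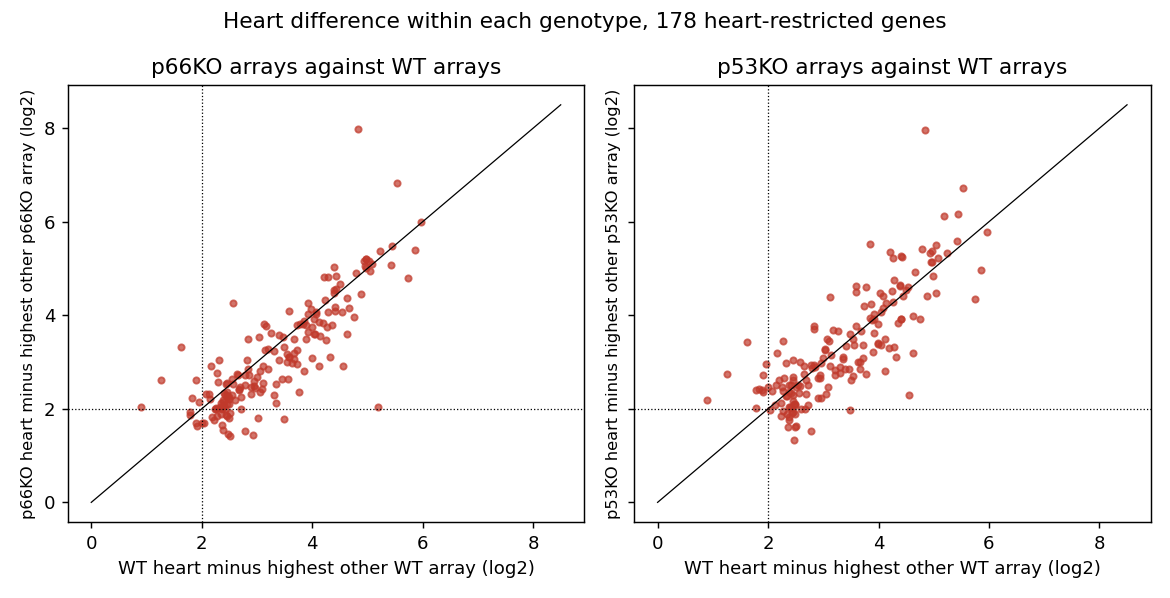
Gap of the heart-restricted genes within each genotype, WT against p66KO and WT against p53KO, on log2 axes with the line of equality. All 178 genes have gaps above 0 in each genotype, and 139 reach 2 in all 3.

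Across the 3 heart arrays a heart-restricted gene spanned a median of 0.44 log2 units, against 0.40 over all genes, and 10 of the 178 (5.6%, against 3.3%) spanned 1 or more. The widest spans were those of Strip2 (8.93, 7.99 and 7.11 in WT, p66KO and p53KO heart) and Pdk4 (12.90, 11.27 and 11.30), the kinase that turns off pyruvate dehydrogenase in fasting. They were followed by Art3 (10.33, 8.75 and 8.82), Lrrc2, Ndrg4, Kcna5, Doc2g and Rbp7. Kcna5 read 6.79, 5.65 and 6.76 and was low in p66KO alone, while the WT array was the highest in each of the others. The call of Pdk4 (gap 2.38, adjusted p = 0.0296) was lost in 9 of the alternatives tried. With 1 array per genotype these differences have no replicate check.

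The WT heart array was the highest of the 3 for 143 heart-restricted genes (80.3%, against 38.1% of all genes) and the p66KO array the lowest for 111 (62.4%, against 33.4%). The median difference from WT was -0.32 in p66KO and -0.23 in p53KO for these genes, against 0.00 and 0.03 over all genes. After repeated quantile normalization WT was highest for 77 of them (43.3%, against 32.0%) and both medians were -0.03, whereas after median centring WT was highest for 155 (87.1%, against 47.9%) with medians of -0.43 and -0.33. After cyclic loess WT was highest for 123 (69.1%, against 39.2%) with medians of -0.30 and -0.23. The WT heart array also had the widest spread of log2 signal of the 3 (SD 1.88, against 1.72 in p66KO and 1.75 in p53KO).

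Genes lower in heart than in each of the other tissues were fewer, and 24 of the 238 (0.132% of genes tested) had a low gap of -2 or less. The low gap of a gene is its heart mean minus the lowest mean among the other tissues. Cdh1, E-cadherin, which joins epithelial cells, read 4.39, 4.68 and 4.29 in WT, p66KO and p53KO heart. It read 9.52 to 9.96 in liver, 11.04 to 11.75 in lung and 8.30 to 9.30 in thymus, and its low gap was -4.43, to thymus (SE 0.26, adjusted p = 5.95e-06). The keratins of simple epithelium Krt18 and Krt8 followed with low gaps of -4.34 and -3.83. Krt18 read 6.61, 6.03 and 6.19 in heart and 10.27 to 12.07 elsewhere, with no overlap.

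Next came Mpzl2, an adhesion molecule of epithelia (low gap -3.03), Idi1, an isomerase of cholesterol synthesis (-2.58), Smarcd2, a chromatin remodelling subunit (-2.51), and Id2, an inhibitor of helix-loop-helix factors (-2.49). Acly, which makes cytosolic acetyl-CoA for lipid synthesis, read at most 8.99 in heart and 10.44 to 11.49 elsewhere, with a low gap of -2.48 to thymus. Serinc5 and Tmem30b, membrane proteins that act on lipids, had low gaps of -2.47 and -2.44, and the call of Tmem30b was lost without any 1 heart array. Over all alternatives tried, Tmem30b lost its call in 8. Smarcd2, Acly and Serinc5 each lost it in 2, and Mpzl2, Idi1 and Id2 each in 1.

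**Figure D5:**
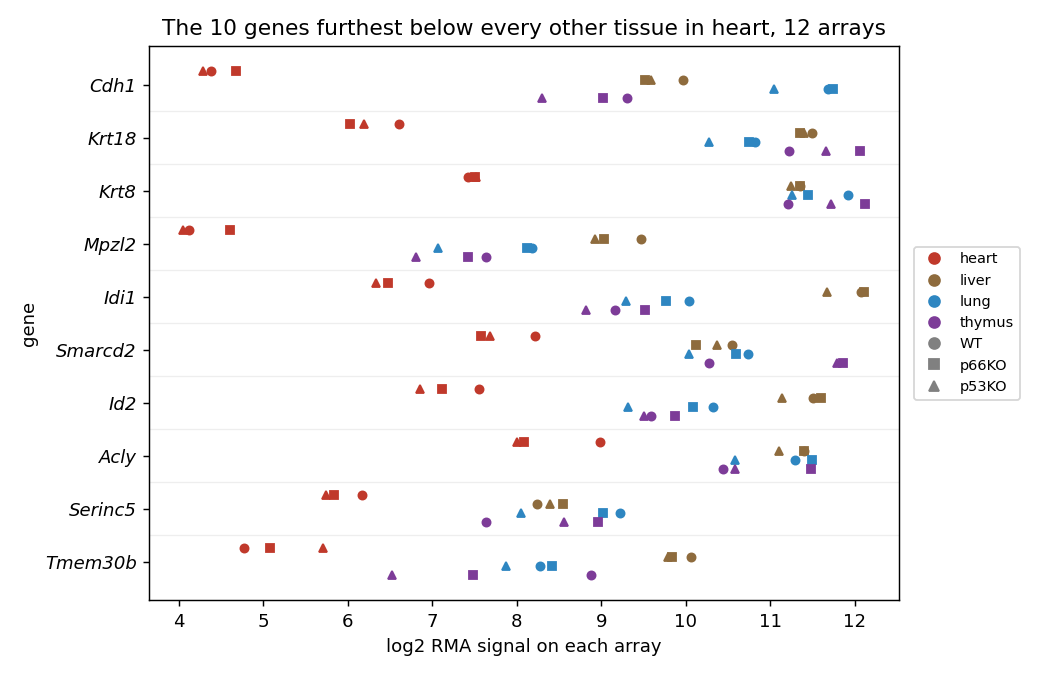
Log2 signal on each of the 12 arrays for the 10 genes furthest below the other tissues in heart, with tissue by colour and genotype by marker shape. For Cdh1 the heart arrays read 4.29 to 4.68 and the other arrays 8.30 to 11.75.

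Over all genes 1.31% were heart-lower. Of 24 genes for protein entry into the secretory pathway, 10 were heart-lower and none heart-higher, and the median gap was -1.22. Sec61a1 and Sec61b, parts of the channel through which new proteins enter the endoplasmic reticulum, had low gaps of -2.10 and -1.99. Stt3a, a catalytic subunit of the glycan transferase, had one of -1.60. The count of 10 rested on single arrays. It was 5 without WT liver or p66KO heart, 4 without p53KO heart, 6 without the p66KO or p53KO liver or the WT or p66KO lung array, and 14 without the thymus group. It was 6 when the probe sets of a gene were averaged, and 0 without all p66KO arrays or without all p53KO arrays. Of 15 antigen presentation genes 3 were heart-lower, namely the class I chain genes H2-K1 (low gap -1.93) and H2-D1 (-1.61) and their light chain B2m (-1.41). B2m read 12.08, 11.66 and 12.18 in heart and 13.01 to 13.83 on the other arrays. Without the p66KO heart array 1 of the 3 calls was left, and 2 were left without p53KO heart or either the WT or the p66KO liver array. Among probe sets whose names do not end in _x_at or _s_at, 1 call was left. With all probe sets, 0 of the antigen presentation genes were called without all p66KO arrays or without all p53KO arrays, and 6 were called without the thymus group.

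Other cell types of the heart were read through their markers. None of 18 endothelial genes was heart-higher, against 3.34% of all genes. Lung was the highest tissue outside heart for each of the 18 (median gap -1.45). Of 15 fibroblast and matrix genes 3 were heart-higher, the proteoglycans Lum (gap 2.36) and Dcn (1.32) and the matrix protein Fbln1 (1.53), while Pdgfra (-2.65) and Tcf21 (-3.40) were highest in lung. Of 10 smooth muscle and pericyte genes Rgs5 (2.22) and Smtn (1.26) were heart-higher. None of 8 genes of mesothelium and epicardium was called (median gap -1.29).

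No gene was heart-higher on the lists for hepatocytes (16 measured, median gap -6.73), lung epithelium (13, -5.23), thymocytes (14, -4.32) or adipocytes (10, -1.08). The same held for B cells (8, -0.88), myeloid cells (12, -0.77), erythroid cells (5, 0.11), G2-M phase (24, -2.36) and antigen presentation (15, -2.30). With 3.34% of all genes heart-higher, a count of 0 on lists this short says little by itself. On the list for fast skeletal muscle 1 of 16 was heart-higher, Casq1 (gap 1.43, a call lost without the p66KO heart array), and the median gap was -0.24. The mean over this list was 8.18 on the p53KO thymus array and 6.05 to 7.47 on all others. Tnnc2, for example, read 11.14 in p53KO thymus and 10.73 and 10.94 in WT and p66KO lung, against 5.37 to 6.48 in heart. Whether this lowered the gaps of genes shared with skeletal muscle was not tested. On the salivary list Smr2 was heart-higher, with 9.74, 9.31 and 9.79 in heart against 6.82, 7.67 and 7.91 as the means of liver, lung and thymus (gap 1.70). Smr2 did not share the pattern of Mucl2, another salivary gene, which read 11.38 in WT heart and 4.00 and 4.10 in the other hearts.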

How the data were processed

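The authors hybridised RNA pools to Mouse Genome arrays. The deposited log2 values per probe set were made by RMA in Partek 6.5, per the submitters' processing notes. RMA includes background correction and quantile normalization, but the deposited arrays did not share 1 distribution (median 6.22 to 6.41, SD 1.72 to 1.99). With quantile normalization repeated, heart-higher genes numbered 864 instead of 608. Raw intensities were not analysed here. The table lists 45101 probe sets including 64 controls, which were dropped. Of the others, 34945 carried 1 gene symbol, 932 several and 9160 none in the probe table, and the Entrez numbers of 34741 were matched to RefSeq. Each of 18193 genes was read by the probe set brightest on average over the 12 arrays, of which 1523 may bind related transcripts (suffix _x_at or _s_at).

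Tissue was fitted in limma 3.58.1 (R 4.3.3) without an intercept on all 12 arrays, leaving 8 residual degrees of freedom. The p of a gene was the largest of its 3 two-sided tissue comparisons where all had 1 sign, and 1 otherwise, adjusted by Benjamini-Hochberg over all genes. The SE is that of a tissue difference. The number of arrays limits the precision, and pools of a genotype may share mice. Scripts were tested on simulated data, and summaries and plots used Python 3.11.15 with pandas 2.3.3.

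Lists were written from textbook knowledge, and the members, lists and rules were chosen with earlier results of these data known. Named genes were the 4 markers, the 20 largest gaps, the 10 lowest, per list up to 4 largest and 2 smallest gaps, isoform pairs, and among heart-restricted genes the 8 widest spans over heart arrays, the 5 highest in lung over liver, and 4 on each side of the threshold. Outside this rule, chosen after their values were seen, were Shc1, Ttn, Acta1, Bmp10, Fgf13, Cox and Sec61 partners, Stt3a, H2-K1, H2-D1, Mucl2 and the genes of the closing observations. Promoters were matched by symbol. Alternatives were 3 other scalings, the mean of probe sets, filters on probe sets or signal, other thresholds, trend, robust and genotype-block fits, and arrays or groups left out.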

Additional observations from a re-analysis of the deposited data

Results flagged for a closer look

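Probe sets with no gene symbol in the table used here were outside the comparison of genes. Of 9160 such probe sets, 14 met the rule for heart restriction (0.153%), and 51 were higher in heart than in each other tissue. Their differences over the highest other tissue had a median of 2.87 and reached 4.89 for probe set 1443632_at, with mean log2 signals of 10.73 in heart, 5.53 in liver, 5.84 in lung and 5.53 in thymus. Probe sets 1437523_s_at (4.64) and 1455952_at (4.29) followed. These probe sets were not named, and the share of genes with a symbol that met the same rule was 0.978%.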

How the results depend on the processing

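Main counts were 608 heart-higher, 238 heart-lower, 178 heart-restricted and 24 genes at least 2 below the lowest other tissue. The last 2 of these 4 are tied to a difference of 2, and heart-restricted genes numbered 443 at 1 and 93 at 3, while low genes numbered 195 at -1 and 4 at -3. Heart-lower counts moved most. They were 120 when the probe sets of a gene were averaged (7 at -2 or below), 76 at an adjusted p of 0.01, 1224 without the thymus group (155 at -2 or below, and 976 heart-higher) and 793 without the WT and p53KO thymus and p53KO lung arrays (47 at -2 or below), a choice made after seeing the data. By non-overlap of arrays alone there were 1534 higher and 1190 lower genes. Over settings that left out 1 array or 1 genotype, heart-higher ranged from 287 to 734, heart-lower from 5 to 537, heart-restricted from 160 to 187, low genes from 5 to 47 and heart-restricted genes higher in lung than liver from 49 to 83. Heart-lower was 537 without WT thymus, 73 without p66KO heart, 61 without p53KO heart, 105, 109 and 138 without WT, p66KO and p53KO liver, and 135 and 125 without WT and p66KO lung. Without all WT, p66KO or p53KO arrays it was 531, 5 and 10, beside 508, 321 and 287 heart-higher genes. The low genes numbered 44, 13 and 15 without WT, p66KO and p53KO heart. Genotypes pair the tissues, and with genotype as a replicate block the counts were 603, 231, 178 and 24, with 74 heart-restricted genes higher in lung than liver. Deviations of arrays of 1 genotype correlated at -0.253 to 0.479, so the pairing was not uniform. Of the 178 heart-restricted genes 152 were kept when any 1 array was left out, and 164 to 177 under 3 other scalings. With probe sets averaged 152 were kept, and with brighter genes only 119. Without all WT, p66KO or p53KO arrays 157, 165 and 159 were kept. Myh6 lost its call without the p53KO lung array or without all p66KO arrays, Actc1 without all p66KO arrays, and Nppa without all WT or all p53KO arrays. No direction reversed among the results computed. Signal over background was not measured here.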

Other observations

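Genes of these paragraphs were picked after their values were seen and carry no test beyond the adjusted p over all genes. Of the 178 heart-restricted genes, 104 were on none of the lists. Genes of the Asb family encode ankyrin repeat proteins that serve as adaptors of ubiquitin ligases. Among 18 measured genes of this family, 10 were heart-higher and 6 heart-restricted, with a median gap of 0.85. Over all genes, 3.34% were heart-higher and 0.978% heart-restricted. Asb15 read 9.37, 9.14 and 8.99 in WT, p66KO and p53KO heart and at most 4.39 elsewhere, for a gap of 4.94. Asb11 (4.30), Asb14 (3.58), Asb2 (3.53), Asb5 (2.98) and Asb10 (2.42) followed, and Trim63, a ubiquitin ligase of the sarcomere, had 5.62. Rpl3l, a muscle version of a ribosomal protein, read 11.12, 10.83 and 10.74 in heart and at most 6.26 elsewhere (gap 4.88), and the elongation factor Eef1a2 had a gap of 4.15. The splicing regulators Rbm24 (3.52) and Rbm20 (2.80), known for processing transcripts of sarcomere genes, and the chaperone Hspb6 (4.52) were heart-restricted too.

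Besides Acly and Idi1, the following 5 genes were heart-lower, a call made for 1.31% of all genes. How many other genes of lipid synthesis were measured and not called was not counted, so these do not describe lipid synthesis as a whole. The heart-lower count also rested on single arrays. Fasn, fatty acid synthase, read 9.57, 8.84 and 8.92 in heart and differed from the lowest other tissue, liver, by -1.43 (adjusted p = 0.014). Acaca, acetyl-CoA carboxylase, differed by -1.06, Scd1, the stearoyl-CoA desaturase, by -1.17, Sqle, squalene epoxidase, by -1.28, and their regulator Srebf1 by -1.37.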
